A study of Arabidopsis thaliana with 24 samples.

Results

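The tau and phi glutathione S-transferases (GSTs) of Arabidopsis thaliana were followed across 3 genotypes in low light (LL) and high light (HL). The members were the rows of the expression table named GSTU1 to GSTU28 or as a phi-class GSTF other than GSTF12, by a fixed list of gene identifiers. The list held 38 of the 34218 genes, 28 of the tau class and 10 of the phi class, and it did not include GSTF4 and GSTF5. Tests were possible for 25 members, 19 tau and 6 phi. The other 13 did not reach 1 FPKM (fragments scaled to transcript length and to library size) in at least 4 libraries.

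Messenger RNA was sequenced from fully expanded leaves of plants 35 days after germination, grown in short days. The genotypes were Col-0 as the wild type, hy5-2, a null mutant of HY5, and BBX32-10, which over-expresses BBX32, both in the Col-0 background. Plants of the LL groups stayed at their growth light of 150 µmol per square metre per second, and plants of the HL groups received 1100 ± 100 µmol per square metre per second from white LEDs for 3.5 h. Each of the 6 groups had 4 libraries, each from the leaves of a different plant, 24 in all. BBX32-10 was a single transgenic line and hy5-2 a single mutant line, and the promoter that drives BBX32 was not given in the sources used here.

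GSTs join the tripeptide glutathione to reactive, electrophilic molecules, which are then moved into the vacuole or broken down. The tau and phi classes are large in plants, mostly soluble and cytosolic, and many of their genes lie in tandem clusters. A number of them are known as genes that herbicides, oxylipins, salicylate or oxidative stress switch on, in part through TGA transcription factors, which bind the element TGACG. HY5 is a bZIP factor of light signalling that binds G-boxes (CACGTG) and related elements, and BBX32 is a B-box protein that acts on HY5-dependent light responses.

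Stretches upstream of 7 members are shown as examples of members called below whose upstream window holds a TGACG or a CACGTG, with GSTU7 for its number of matches. They were read from the TAIR10.1 genome within 300 bases before the annotated gene start, on the strand of the gene, and capitals mark the motif on either strand. Stretches with TGACG come from GSTU1 (chr2:12632559-12632658, minus strand), GSTU7 (chr2:12618910-12619009, minus strand), GSTF8 (chr2:19556127-19556226, plus strand), GSTU5 (chr2:12625991-12626090, minus strand) and GSTU26 (chr1:5874995-5875094, plus strand).
GSTU1: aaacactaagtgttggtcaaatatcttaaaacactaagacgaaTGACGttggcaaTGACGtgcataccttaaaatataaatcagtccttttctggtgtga
GSTU7: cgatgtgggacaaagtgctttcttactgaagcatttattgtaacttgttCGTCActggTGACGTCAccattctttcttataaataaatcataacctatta
GSTF8: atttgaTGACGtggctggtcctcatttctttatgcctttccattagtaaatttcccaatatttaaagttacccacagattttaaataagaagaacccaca
GSTU5: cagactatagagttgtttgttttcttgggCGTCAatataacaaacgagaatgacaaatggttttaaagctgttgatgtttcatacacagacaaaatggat
GSTU26: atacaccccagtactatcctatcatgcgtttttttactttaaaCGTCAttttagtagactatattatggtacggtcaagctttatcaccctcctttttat
Stretches with CACGTG come from GSTU17 (chr1:3398409-3398508, minus strand) and GSTF6 (chr1:662556-662655, minus strand).
GSTU17: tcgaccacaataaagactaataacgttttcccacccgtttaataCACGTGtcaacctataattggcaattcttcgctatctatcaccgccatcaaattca
GSTF6: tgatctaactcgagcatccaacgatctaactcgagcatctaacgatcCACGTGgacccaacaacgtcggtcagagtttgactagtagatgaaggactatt
GSTU1 holds TGACG at 2 places, which start 77 and 65 bases before the gene start. In GSTU7 the motif occurs 3 times, and 2 of these matches overlap on opposite strands. GSTU5 holds a second match that lies inside the neighbouring gene AT2G29452 and is not shown. The 5 letters TGACG were present in the 300-base window of 16 of 38 members and in 21.3% of 27443 windows over the genome. CACGTG, which reads the same on both strands, was present in 3 members, GSTU17, GSTU18 and GSTF6, and in 7.09% of all windows. The GSTU18 window lies inside the neighbouring GSTU17 gene. The GSTU24 window, which holds 1 TGACG, overlaps the gene before it, so neither is shown. The W-box letters TTGACC or TTGACT were in 20 member windows and in 32.3% of all windows. These matches are letters in a window and show no binding.

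Library depth, recovered from the steps between FPKM values, was 35408723 to 49341933 fragments. BBX32 was at 3.30 ± 0.787 FPKM (mean ± SD, n = 4) in Col-0 LL and at 845 ± 39.1 in BBX32-10 LL, and HY5 was at 21.4 ± 3.29 in Col-0 HL and 0.499 ± 0.313 in hy5-2 HL, so both followed the labels. In BBX32-10 HL, replicate 1 held 364 FPKM of BBX32 against 719 to 1049 in the other libraries. The 5 root markers summed to at most 0.341 FPKM per library, with RHD6 and EXPA7 at 0 in every library. Both phloem markers (SUC2 and APL) were detected, with a sum in BBX32-10 of 108.8 to 127 FPKM in LL and 83.5 to 121 in HL, and in Col-0 of 67.4 to 91.7 in LL and 49.8 to 61.6 in HL. The hy5-2 phloem sums overlapped those of Col-0, at 60.6 to 87.9 FPKM in LL and 45.6 to 53.2 in HL. The 6 leaf mesophyll markers summed in HL to 38131 to 44352 FPKM in Col-0, 23025 to 36531 in BBX32-10 and 44475 to 53156 in hy5-2, with no overlap, and in LL to 27412 to 31754, 24301 to 29382 and 31284 to 35645, with overlap between Col-0 and each line. The 3 guard cell markers summed in HL to 22.9 to 25.4 FPKM in Col-0, 17.5 to 20.4 in BBX32-10 and 18.7 to 24.98 in hy5-2. In LL the guard cell sums were 20.6006 to 22.0, 19.4 to 20.5985 and 16.3 to 21.9 FPKM. In HL the BBX32-10 means of MYB60 and KAT1 were below those of Col-0 (3.00 against 4.89 and 8.36 against 11.9 FPKM), and that of FAMA was above (8.11 against 7.23). Some of these marker sums moved with genotype, and their part in the differences below was not tested. In leaf RNA, fewer cells of a type and less RNA per cell cannot be told apart.

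The family was carried by a few genes. Over the 24 libraries GSTF9, GSTU20, GSTU19, GSTU5 and GSTF6 had the highest mean levels per transcript length, at 1028, 646, 372, 321 and 193 FPKM. These 5 genes held 69.7 to 84.3% of the summed FPKM of the 38 members. The next members were GSTU17 (mean 170.0 FPKM), GSTF10 (165), GSTF8 (110.4), GSTU18 (42.1) and GSTF7 (39.1). The other 15 tested members had means between 0.614 FPKM for GSTU3 and 38.2 for GSTU13. Among the 13 members without a test, the highest value in any library was 1.64 FPKM for GSTU9. GSTF11 was listed at 0 in all 24 libraries, and GSTU2, GSTF13, GSTU21, GSTF14, GSTU12, GSTU14 and GSTU15 were at 0 in 12 to 22 libraries.

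The summed level of the family was highest in BBX32-10. It was 2403 to 3038 FPKM in Col-0 LL and 2679.9 to 3294 in Col-0 HL. In BBX32-10 it was 3782 to 4016 in LL and 3408 to 5773 in HL. In hy5-2 it was 2197 to 2628 in LL and 2453 to 2979 in HL. The BBX32-10 libraries thus lay above all Col-0 and hy5-2 libraries in each light. Within BBX32-10 HL the libraries were spread most, with sums of 3408, 5273, 4097 and 5773 FPKM for replicates 1 to 4. Replicates 2 and 4 were the 2 highest libraries of that group for 13 of the 25 tested members (52%), against 18.2% of all 17788 tested genes. Without these 2 libraries the sums of the group were 3408 and 4097 FPKM, still above the Col-0 HL and hy5-2 HL libraries. The counts that use BBX32-10 HL are given below with and without both libraries, an alternative chosen after seeing the data.

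**Figure D1:**
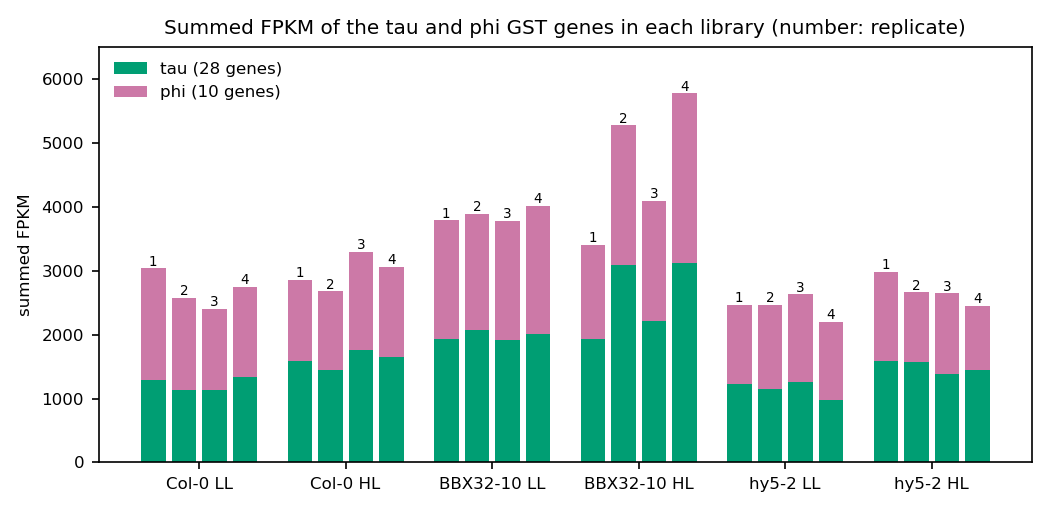
Summed FPKM of the 38 members in each of the 24 libraries (vertical axis), split into tau (28 genes) and phi (10 genes), with the replicate number above each bar. The 8 BBX32-10 bars reach 3408 to 5773 FPKM, and replicates 2 and 4 of BBX32-10 HL are the tallest.

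The HL response was compared within each genotype by limma on log2(FPKM + 1) over all 17788 tested genes, with 4 libraries in each group. A gene was called at a Benjamini-Hochberg adjusted p under 0.05, and log2 changes below are on that scale, which understates the change of low genes. In Col-0, 9 of 25 members were called, 3 higher and 6 lower in HL, beside 51.6% of all 17788 genes, 30% higher and 21.6% lower. The BBX32-10 plants had 6 members higher and 6 lower, beside 19.6% of all genes called, 10.7% higher and 8.85% lower. Leaving out replicates 2 and 4 of BBX32-10 HL gave 1 member higher and 4 lower, beside 16.5% of all genes. The hy5-2 plants had 1 member higher and 7 lower, beside 43.5% of all genes called, 23.1% higher and 20.4% lower. The median log2 change of the 25 members was −0.060, 0.25 and −0.22 in Col-0, BBX32-10 and hy5-2, against 0.055, 0.019 and −0.0019 over all tested genes. Without replicates 2 and 4 of BBX32-10 HL the median in BBX32-10 was −0.11, against 0.010 over all tested genes. GSTU5 rose, and GSTF7, GSTU27 and GSTU13 fell, in all 3 genotypes. GSTF8, GSTF6 and GSTU17 were called in opposite directions in different genotypes.

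GSTU5 (AT2G29450, chromosome 2, 12624403 to 12625790, minus strand) lies in the chromosome 2 cluster of GSTU1 to GSTU7. In Col-0 its libraries held 166, 113, 141 and 187 FPKM in LL and 308, 327, 476 and 421 in HL. In BBX32-10 they held 229, 208, 229.9 and 278 FPKM in LL and 454, 889.9, 413 and 839 in HL. The hy5-2 libraries held 173, 154, 129 and 129.9 FPKM in LL and 317, 406, 324 and 382 in HL. The HL libraries lay above all LL libraries in each genotype. The HL mean was 2.52 times the LL mean in Col-0 (log2 change 1.33 with SE 0.21, adjusted limma p 1.74e-05), 2.74 times in BBX32-10 (log2 change 1.38 with SE 0.21, adjusted limma p 9.01e-05) and 2.44 times in hy5-2 (log2 change 1.29 with SE 0.21, adjusted limma p 4.29e-05). With all libraries GSTU5 was the only member called higher in HL in hy5-2. It was called in all 3 genotypes whichever library was left out. Its change in BBX32-10 was 0.88 when replicates 2 and 4 of BBX32-10 HL were both left out (limma adjusted p 0.0031).

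GSTF7 (AT1G02920, chromosome 1, 658578 to 659980, minus strand), known as a gene that pathogens and salicylate switch on, fell the most in Col-0. Its Col-0 libraries held 124, 125, 67.3 and 48.0 FPKM in LL and 25.8, 20.5, 27.7 and 28.4 in HL. The BBX32-10 libraries held 25.5, 13.2, 27.0 and 10.4 FPKM in LL and 11.0, 2.35, 5.55 and 9.24 in HL. In hy5-2 they held 45.6, 68.5, 59.6 and 77.4 FPKM in LL and 33.8, 18.6, 44.9 and 19.7 in HL. Every Col-0 HL library was below every Col-0 LL library, and the lowest value of all was in BBX32-10 HL. The log2 change was −1.69 in Col-0 (SE 0.38, limma adjusted p 0.000703), −1.37 in BBX32-10 (adjusted p 0.0131) and −1.14 in hy5-2 (adjusted p 0.0176). GSTF7 and GSTF6 are neighbours whose transcripts were 92.2% identical over 747 aligned bases, and the handling of shared reads was not given in the sources used here, so both levels are uncertain.

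GSTF6 (AT1G02930, chromosome 1, 661088 to 662475, minus strand), an enzyme of camalexin synthesis, was called in opposite directions in BBX32-10 and hy5-2. Its Col-0 libraries held 256, 186, 102 and 128 FPKM in LL and 122, 164, 307 and 322 in HL. In BBX32-10 the values were 159, 108, 191 and 114 FPKM in LL and 295, 473, 334 and 703 in HL. In hy5-2 the values were 80.4, 124, 96.2 and 142 FPKM in LL and 88.7, 51.5, 54.8 and 22.8 in HL. All 4 BBX32-10 HL libraries were above the BBX32-10 LL libraries, while in Col-0 the LL and HL libraries overlapped. In BBX32-10 it rose 3.15-fold (log2 change 1.61 with SE 0.38, adjusted limma p 0.0043), and in hy5-2 it fell by 1.13 on the log2 scale (limma adjusted p 0.0189), with overlapping libraries. In Col-0 it was not called (log2 change 0.42, adjusted p 0.377). The HL response of neither line was called different from that of Col-0. The difference in log2 change was 1.19 for BBX32-10 (limma adjusted p 0.122) and −1.54 for hy5-2 (limma adjusted p 0.21).

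GSTF8 (AT2G47730, chromosome 2, 19556326 to 19559485, plus strand) is a stress gene known for the TGA-type element in its promoter. The TGACG stretch shown above lies before the annotated gene start, and whether it is that known element was not tested. The Col-0 libraries held 137, 148, 116 and 110.2 FPKM in LL and 60.0, 62.6, 48.4 and 53.4 in HL. The BBX32-10 libraries held 112, 123, 100.3 and 91.6 FPKM in LL and 102, 204, 146 and 281 in HL. The hy5-2 libraries held 108, 116, 118 and 170.1 FPKM in LL and 68.3, 45.1, 64.3 and 64.1 in HL. HL libraries lay below all LL libraries in Col-0 and in hy5-2, whereas in BBX32-10 the light groups overlapped and replicates 2 and 4 were highest. GSTF8 fell in Col-0 (log2 change −1.17 with SE 0.21, adjusted limma p 9.54e-05) and in hy5-2 (log2 change −1.07 with SE 0.21, adjusted limma p 0.000372), and rose in BBX32-10 (log2 change 0.68 with SE 0.21, adjusted limma p 0.0273). It shares 516 bases on the same strand with AT2G47720, which was listed at 0 in every library.

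GSTU27 and GSTU13 fell in every genotype by smaller amounts. GSTU27 (AT3G43800, chromosome 3, 15660770 to 15661987, plus strand) was at 32.4, 34.0, 31.8 and 30.2 FPKM in LL and 19.0, 18.9, 23.0 and 19.9 in HL in Col-0. It was at 23.3, 28.2, 26.9 and 27.6 FPKM in LL and 18.6, 18.3, 25.1 and 18.8 in HL in BBX32-10. It was at 31.7, 37.9, 31.3 and 29.4 FPKM in LL and 22.7, 19.1, 17.8 and 20.8 in HL in hy5-2. The HL libraries were below the LL libraries in Col-0 and hy5-2, and in BBX32-10 only replicate 3 of the HL group overlapped the LL group. The log2 change was −0.64, −0.38 and −0.67 in Col-0, BBX32-10 and hy5-2 (limma adjusted p 1.74e-05, 0.0103 and 1.85e-05).

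GSTU13 (AT1G27130, chromosome 1, 9425280 to 9426897, plus strand), which acts in the indole glucosinolate pathway of immunity, was at 53.1, 50.2, 53.8 and 58.3 FPKM in LL and 37.5, 39.8, 36.4 and 30.7 in HL in Col-0. In BBX32-10 it was at 36.5, 41.5, 39.2 and 41.3 FPKM in LL and 26.7, 30.8, 31.2 and 37.4 in HL. In hy5-2 it was at 39.7, 37.5, 37.5 and 36.9 FPKM in LL and 36.0, 27.8, 29.7 and 27.4 in HL. Col-0 LL was the highest group, above the LL libraries of both lines. In Col-0 GSTU13 fell by 0.57 on the log2 scale, and in both lines by 0.33 (limma adjusted p 4.13e-05, 0.0194 and 0.00926).

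Of the remaining calls in Col-0, GSTU17 rose (log2 change 0.89), as did GSTU23 (0.47), and GSTU26 and GSTU18 fell (−0.98 and −0.47). In BBX32-10, GSTU7 (0.82), GSTU19 (0.68) and GSTU16 (0.41) rose, and GSTU3 (−1.06), GSTU8 (−0.99) and GSTU17 (−0.50) fell. In hy5-2, GSTU26 and GSTU28 fell (−0.74 and −0.55). The other 9 tested members, GSTF9, GSTU20, GSTF10, GSTU24, GSTU1, GSTU4, GSTF2, GSTU6 and GSTU10, were called in no genotype, with log2 changes between −0.73 and 0.69.

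**Figure D2:**
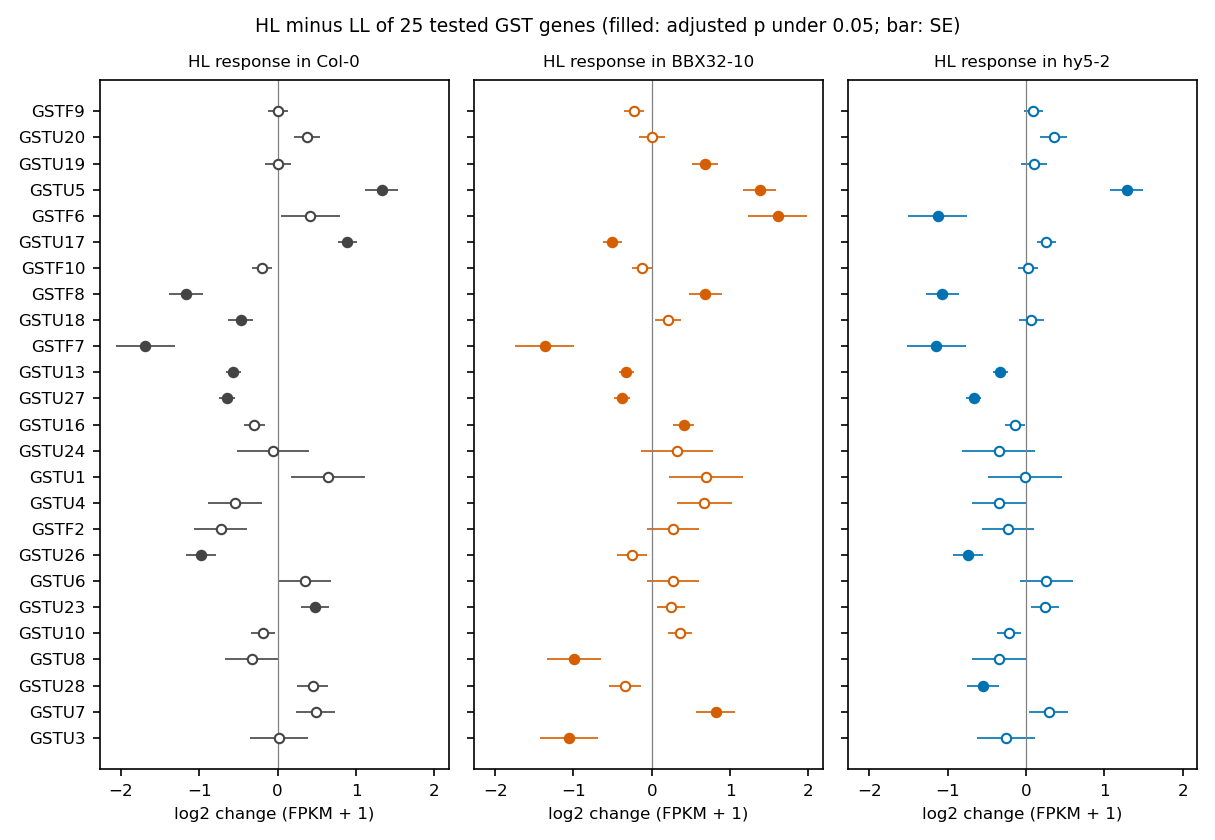
HL minus LL difference on the log2(FPKM + 1) scale (horizontal axis) for the 25 tested members in Col-0, BBX32-10 and hy5-2, ordered by mean level; points are limma estimates, bars SE, filled where the adjusted p was under 0.05. GSTU5 is near 1.3 in all 3 panels, and GSTF8 is at −1.17, 0.68 and −1.07.

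The HL calls differed in how often they were lost when 1 library was left out. A call could be lost with a log2 change no smaller than with all libraries. For GSTU3 without BBX32-10 HL replicate 4 it was −1.14 against −1.06. GSTU18 was not called without replicate 4 of Col-0 LL or replicates 1 or 2 of Col-0 HL, where its log2 change ranged from −0.41 to −0.39. GSTU23 was not called without replicates 3 or 4 of Col-0 LL or replicates 2, 3 or 4 of Col-0 HL, where its log2 change ranged from 0.37 to 0.48. In BBX32-10 these were more. GSTU3 was not called without replicates 2 or 3 of BBX32-10 LL or replicates 1, 2, 3 or 4 of BBX32-10 HL, where its log2 change ranged from −1.14 to −0.54. GSTU13 was not called without replicates 2 or 4 of BBX32-10 LL or replicate 1 of BBX32-10 HL, where its log2 change ranged from −0.31 to −0.25. GSTU16 was not called without replicates 1, 3 or 4 of BBX32-10 LL or replicates 2 or 4 of BBX32-10 HL, where its log2 change ranged from 0.25 to 0.43. GSTU7 was not called without replicates 3 or 4 of BBX32-10 LL or replicates 2 or 4 of BBX32-10 HL, where its log2 change ranged from 0.54 to 0.76. GSTU8 was not called without replicates 2 or 3 of BBX32-10 LL or replicates 1 or 3 of BBX32-10 HL, where its log2 change ranged from −0.90 to −0.59. GSTF8 was not called without replicates 3 or 4 of BBX32-10 LL or replicates 2 or 4 of BBX32-10 HL, where its log2 change ranged from 0.45 to 0.66. GSTF7 was not called without replicates 1 or 3 of BBX32-10 LL or replicate 2 of BBX32-10 HL, where its log2 change ranged from −1.20 to −1.0002. A fit of the 8 BBX32-10 libraries alone called 3 members, GSTF6, GSTU5 and GSTU10, in place of 12. Without BBX32-10 HL replicate 4, the changes of GSTU19 and GSTF8 were 0.45 and 0.45 in place of 0.68 and 0.68. With replicates 2 and 4 of that group both left out, the calls were GSTU5, GSTU17, GSTU13 and GSTU8, which were also called with all libraries, and GSTF10. The change of GSTF6 was then 1.17 (adjusted p 0.0766) and that of GSTF8 0.20 (adjusted p 0.515). In hy5-2 there were 3 such members. GSTF6 was not called without replicate 4 of hy5-2 LL or replicate 4 of hy5-2 HL, where its log2 change was −0.99 and −0.77. GSTU28 was not called without replicates 1 or 3 of hy5-2 LL or replicates 1 or 3 of hy5-2 HL, where its log2 change ranged from −0.54 to −0.43. GSTF7 was not called without replicates 2 or 4 of hy5-2 HL, where its log2 change was −0.96 and −0.99.

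BBX32-10 was set against Col-0 in each light to see which members differ when BBX32 is over-expressed. In LL, 16 of 25 members were called, 9 higher and 7 lower, beside 42.5% of all genes, 25.8% higher and 16.7% lower. In HL, 10 were higher and 2 lower, beside 23.6% of all genes, 10.9% higher and 12.7% lower. In HL without replicates 2 and 4 of BBX32-10, 3 were higher and 1 lower, beside 8.17% of all genes. The median log2 change of the 25 members was −0.080 in LL and 0.43 in HL, against 0.098 and 0.021 over all tested genes. Without replicates 2 and 4 of BBX32-10 HL the HL median was 0.20, against 0.015 over all tested genes. GSTU24 and GSTU1 had the highest differences in both lights and GSTF7 the lowest. GSTU24, GSTU1, GSTU17, GSTU20, GSTF9, GSTU5 and GSTU7 were higher in both lights. In LL the higher set was 8 tau genes and GSTF9, and the lower set was 5 tau genes and the phi genes GSTF7 and GSTF2.

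GSTU24 (AT1G17170, chromosome 1, 5869543 to 5870883, plus strand), which can conjugate the explosive TNT, was low outside BBX32-10. The Col-0 libraries held 1.93, 0.687, 2.34 and 0.867 FPKM in LL and 2.95, 2.45, 0.472 and 0.300 in HL. In BBX32-10 they held 8.88, 35.0, 10.3 and 7.26 FPKM in LL and 9.53, 23.4, 7.11 and 37.9 in HL. In hy5-2 they held 0.202, 0.670, 1.19 and 0.677 FPKM in LL and 0.304, 0.111, 0.447 and 0.331 in HL. Each BBX32-10 library was above all 16 others, and replicate 2 in LL and replicates 2 and 4 in HL were the highest. The BBX32-10 mean was 10.5 times that of Col-0 in LL (log2 change 2.52 with SE 0.46, adjusted limma p 0.000162) and 12.6 times in HL (log2 change 2.90 with SE 0.46, adjusted limma p 0.000107). The HL change without replicates 2 and 4 of BBX32-10 was 2.03 (adjusted p 0.0103). Its neighbour GSTU25, which shares the TNT activity, reached at most 0.832 FPKM in any library and was not tested.

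GSTU1 (AT2G29490, chromosome 2, 12631341 to 12632538, minus strand) had the same order of BBX32-10 libraries as GSTU24 in both lights. Its Col-0 libraries held 1.53, 0.647, 1.59 and 0.966 FPKM in LL and 2.84, 4.58, 2.05 and 0.954 in HL. The BBX32-10 libraries held 6.11, 26.4, 10.5 and 3.58 FPKM in LL and 10.1, 21.8, 6.15 and 37.7 in HL. The hy5-2 libraries held 0.857, 0.562, 2.10 and 1.95 FPKM in LL and 1.12, 1.36, 0.753 and 1.98 in HL. Within each light no BBX32-10 library overlapped Col-0. GSTU1 was 9.83 times higher in LL (log2 change 2.23 with SE 0.47, adjusted limma p 0.00068) and 7.27 times in HL (log2 change 2.28 with SE 0.47, adjusted limma p 0.00138). GSTU1 was not called in HL without BBX32-10 replicates 2 and 4 (log2 change 1.41, adjusted p 0.0893).

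GSTU7 (AT2G29420, chromosome 2, 12617936 to 12618899, minus strand), linked to tolerance of methyl viologen, was a low member of the same cluster. In Col-0 it was at 0.509, 0.310, 0.331 and 1.05 FPKM in LL and 1.18, 1.16, 1.19 and 1.00 in HL. In BBX32-10 it was at 1.38, 2.38, 1.10 and 0.810 FPKM in LL and 1.66, 3.99, 2.01 and 6.36 in HL. In hy5-2 it was at 0.219, 0.467, 0.337 and 0.569 FPKM in LL and 0.297, 1.03, 0.999 and 0.588 in HL. The BBX32-10 libraries were above Col-0 in HL, and in LL replicate 4 overlapped. The ratio of means was 2.57 in LL (log2 change 0.63 with SE 0.25, adjusted limma p 0.046) and 3.09 in HL (log2 change 0.96 with SE 0.25, adjusted limma p 0.00723). GSTU7 overlaps the opposite-strand genes AT2G08340 over 636 bases and AT2G29410 over 52 bases, and strand use in counting was not given in the sources used here, so its level is uncertain.

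GSTU17 (AT1G10370, chromosome 1, 3396883 to 3398358, minus strand), a gene tied to phytochrome A signalling and drought, was far more abundant and had the next highest difference in LL. The Col-0 libraries held 72.4, 82.7, 98.7 and 84.2 FPKM in LL and 175, 159, 144 and 149.8 in HL. The BBX32-10 libraries held 340.3, 347, 270.3 and 255 FPKM in LL and 239, 245, 196 and 175 in HL. The hy5-2 libraries held 110.1, 111, 119.8 and 132 FPKM in LL and 137, 162, 118 and 155 in HL. All BBX32-10 LL libraries were above those of every other group. The level was 3.59 times that of Col-0 in LL (log2 change 1.83 with SE 0.13, adjusted limma p 5.12e-10) and 1.36 times in HL (log2 change 0.43 with SE 0.13, adjusted limma p 0.016).

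GSTU18 (AT1G10360, chromosome 1, 3395551 to 3396953, minus strand) lies directly downstream of GSTU17, and the annotated genes share 71 bases on the same strand. It was at 53.8, 54.1, 54.7 and 68.4 FPKM in LL and 35.8, 35.3, 47.5 and 47.8 in HL in Col-0. It was at 31.1, 32.6, 28.5 and 33.7 FPKM in LL and 30.0, 37.9, 34.4 and 45.1 in HL in BBX32-10. It was at 50.2, 48.9, 41.8 and 26.8 FPKM in LL and 39.3, 47.0, 49.1 and 37.1 in HL in hy5-2. GSTU18 was lower in BBX32-10 LL than in Col-0 LL, with no overlap (log2 change −0.85 with SE 0.16, adjusted limma p 0.000221), the opposite direction to GSTU17. In HL the groups overlapped and GSTU18 was not called (log2 change −0.17, adjusted p 0.481).

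Of the 5 most abundant members, GSTF9, GSTU20 and GSTU5 were higher in BBX32-10 in both lights, GSTU19 was called in HL, and GSTF6 was called in neither light. GSTF9 (AT2G30860, chromosome 2, 13138882 to 13140392, plus strand) was at 1018, 792, 808 and 933 FPKM in LL and 899.9, 823, 966 and 858 in HL in Col-0. It was at 1374, 1402, 1375 and 1606 FPKM in LL and 955, 1334, 1240.0 and 1438 in HL in BBX32-10. It was at 845, 849.7, 946 and 674 FPKM in LL and 1025, 830.0, 924 and 756 in HL in hy5-2. In LL all BBX32-10 libraries exceeded Col-0, and in HL replicate 1 of BBX32-10 overlapped it. GSTF9 was 1.62 times higher in LL (log2 change 0.70 with SE 0.12, adjusted limma p 0.000113) and 1.40 times in HL (log2 change 0.47 with SE 0.12, adjusted limma p 0.00854).

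GSTU20 (AT1G78370, chromosome 1, 29484120 to 29485389, minus strand) is known as a partner of the jasmonate-conjugating enzyme JAR1. Col-0 libraries held 518, 401, 411 and 546 FPKM in LL and 611, 507, 687 and 614 in HL. BBX32-10 libraries held 839.6, 918, 867 and 982 FPKM in LL and 699, 1062, 994 and 894 in HL. Libraries of hy5-2 held 489, 428, 539 and 289.7 FPKM in LL and 668, 586, 486 and 458 in HL. BBX32-10 was above Col-0 in every library of both lights. The ratio was 1.92 in LL (log2 change 0.95 with SE 0.17, adjusted limma p 9.7e-05) and 1.51 in HL (log2 change 0.58 with SE 0.17, adjusted limma p 0.0143).

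GSTU19 (AT1G78380, chromosome 1, 29486387 to 29488007, minus strand), known as an enzyme that herbicide safeners induce, was at 331, 334, 289 and 309.8 FPKM in LL and 354, 311, 289 and 317 in HL in Col-0. In BBX32-10 it was at 372, 377, 378 and 336 FPKM in LL and 385, 688.5, 469 and 950.0 in HL. In hy5-2 it was at 297, 281, 303 and 295 FPKM in LL and 324, 287, 323 and 333 in HL. Col-0 and hy5-2 ranged from 281 to 354 FPKM, and BBX32-10 HL replicates 2 and 4 were the highest of all libraries. GSTU19 was called in HL (log2 change 0.89 with SE 0.17, adjusted limma p 0.000541), and in LL the log2 change was 0.21 (adjusted p 0.323).

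GSTU16 (AT1G59700, chromosome 1, 21936278 to 21938001, plus strand) was at 24.9, 23.8, 27.6 and 28.1 FPKM in LL and 20.2, 21.1, 23.2 and 19.7 in HL in Col-0. It was at 24.4, 27.3, 20.8 and 21.7 FPKM in LL and 27.4, 34.4, 23.3 and 44.1 in HL in BBX32-10. It was at 23.6, 24.0, 23.2 and 25.7 FPKM in LL and 18.6, 23.1, 23.4 and 22.4 in HL in hy5-2. The BBX32-10 HL libraries were above all Col-0 HL libraries, replicate 3 by the least. It was called in HL (log2 change 0.56 with SE 0.13, adjusted limma p 0.00393), and in LL the log2 change was −0.15 (adjusted p 0.39).

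Among the lower members, GSTF7, whose values are given above, fell by 2.20 on the log2 scale in LL and by 1.87 in HL relative to Col-0 (limma adjusted p 7.58e-05 and 0.00101). GSTF2 (AT4G02520, chromosome 4, 1110343 to 1112033, minus strand), which binds camalexin and indole-type ligands, was at 11.0, 9.57, 4.01 and 4.25 FPKM in LL and 2.72, 2.37, 4.41 and 5.51 in HL in Col-0. It was at 1.69, 1.54, 1.66 and 0.698 FPKM in LL and 2.92, 1.00, 1.74 and 2.06 in HL in BBX32-10. It was at 3.50, 6.55, 4.02 and 9.62 FPKM in LL and 5.97, 2.67, 7.94 and 3.21 in HL in hy5-2. The BBX32-10 LL libraries were below all Col-0 LL libraries, while within Col-0 LL replicates 1 and 2 were high. GSTF2 was 5.15 times lower in LL (log2 change −1.69 with SE 0.33, adjusted limma p 0.00034), and in HL it was not called (−0.69, adjusted p 0.143). Its level is uncertain, since 1442 bases overlap AT4G02510 on the opposite strand, which reached 82.1 FPKM, and its transcript was 92.9% identical to that of GSTF3 over 959 bases.

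The other members higher in LL were GSTU8 (log2 change 0.91), GSTU28 (0.82) and GSTU5 (0.65), and those lower were GSTU26 (−1.09), GSTU10 (−0.57), GSTU13 (−0.43) and GSTU27 (−0.27). In HL, GSTF8 was higher in all 4 BBX32-10 libraries than in any Col-0 library (log2 change 1.60 with SE 0.21, adjusted limma p 1.65e-05). GSTU5 was higher by 0.70 with overlapping libraries, and GSTU23 was lower (−0.57). GSTF6 had a log2 change of 1.01 in HL and was not called (adjusted p 0.0546).

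TGACG was present in the windows of 5 of the 9 members higher in LL, 2 of the 7 lower and 4 of the 9 not called. Of the 3 members with CACGTG, GSTU17 was higher in BBX32-10 LL, GSTU18 was lower and GSTF6 was not called.

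**Figure D3:**
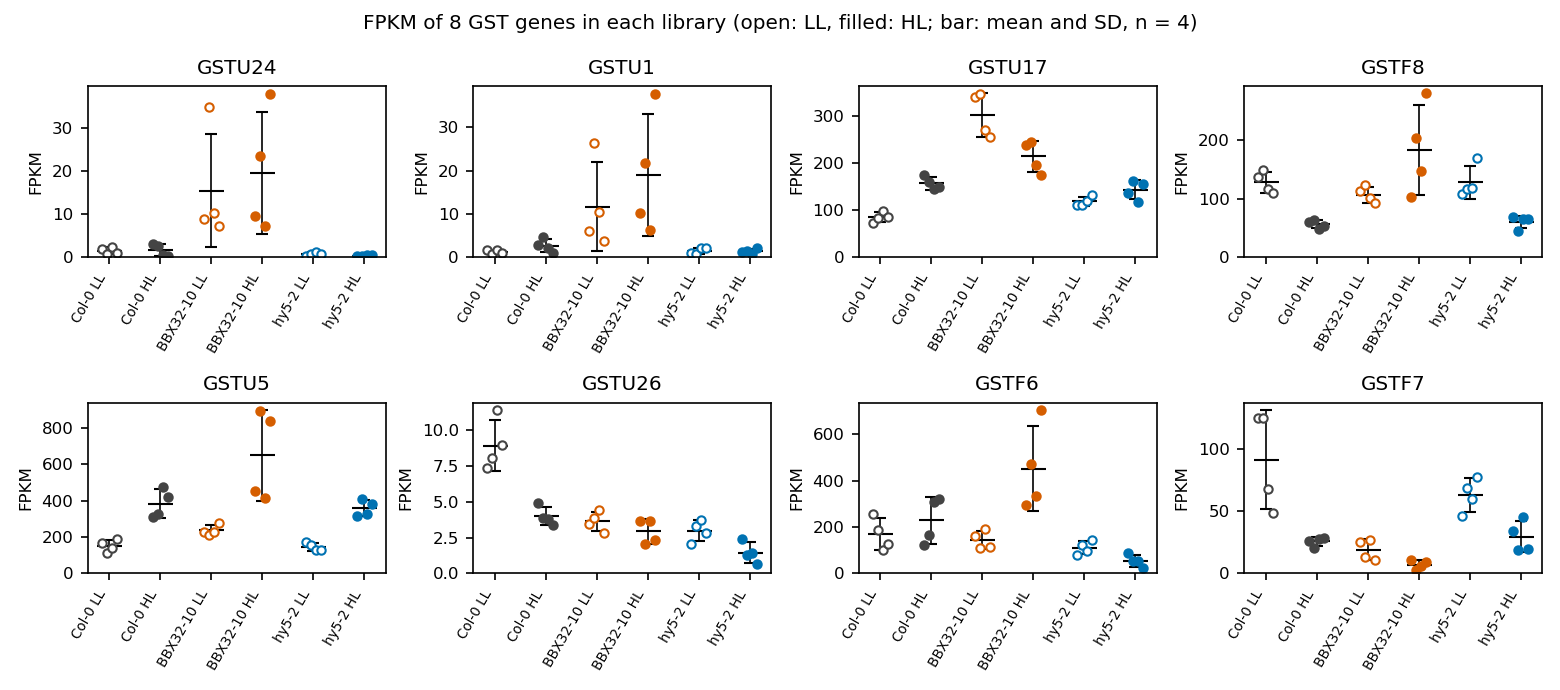
FPKM (vertical axis) of GSTU24, GSTU1, GSTU17, GSTF8, GSTU5, GSTU26, GSTF6 and GSTF7 in each of the 6 groups; points are libraries (open LL, filled HL), and the black marks are the mean and SD (n = 4). GSTU24 and GSTU1 stand above the other genotypes in BBX32-10, with replicates 2 and 4 highest in HL, and GSTF8 in HL is higher in BBX32-10 than in Col-0 or hy5-2.

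Some of the BBX32-10 calls were lost when 1 library was left out, at times with a log2 change no smaller than with all libraries. For GSTU7 without BBX32-10 LL replicate 3 it was 0.68 against 0.63. In LL the calls lost were those of GSTU27, GSTU7, GSTU8 and GSTU5. GSTU27 was not called without replicates 1, 2 or 3 of Col-0 LL or replicates 1 or 3 of BBX32-10 LL, where its log2 change ranged from −0.28 to −0.21. GSTU7 was not called without replicates 1, 2 or 3 of Col-0 LL or replicates 1, 2 or 3 of BBX32-10 LL, where its log2 change ranged from 0.45 to 0.68. GSTU8 was not called without replicates 3 or 4 of Col-0 LL or replicates 2 or 3 of BBX32-10 LL, where its log2 change ranged from 0.50 to 0.88. GSTU5 was not called without replicate 2 of Col-0 LL or replicate 4 of BBX32-10 LL, where its log2 change was 0.52 and 0.57. In HL they were GSTU23, GSTU17, GSTU20 and GSTU5. GSTU23 was not called without replicates 3 or 4 of Col-0 HL or replicate 2 of BBX32-10 HL, where its log2 change ranged from −0.58 to −0.49. GSTU17 was not called without replicate 3 of Col-0 HL or replicate 2 of BBX32-10 HL, where its log2 change was 0.39 and 0.36. GSTU20 was not called without replicate 2 of Col-0 HL or replicate 2 of BBX32-10 HL, where its log2 change was 0.50. GSTU5 was not called without replicates 1 or 2 of Col-0 HL or replicates 2 or 4 of BBX32-10 HL, where its log2 change ranged from 0.52 to 0.63. Without BBX32-10 HL replicate 2 the HL count was 8, and without replicate 4, or without replicate 1 with its low BBX32, it was 12 and 13. The all-gene calls moved as well, from 1932 higher and 2267 lower of 17788 with all libraries. They were 1303 and 1722 without replicate 2, 1228 and 1671 without replicate 4, and 3479 and 2793 without replicate 1. A fit of only the 8 libraries compared called 6 members in HL, without GSTU19, GSTU17, GSTU16, GSTU7, GSTF9 and GSTU5. With replicates 2 and 4 of BBX32-10 HL both left out, the HL calls were GSTU24, GSTF8 (1.12), GSTU19 (0.42) and GSTF7 (−1.58), and the other 8 were lost.

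The comparison of hy5-2 with Col-0 used the same Col-0 libraries. In LL, 2 of 25 members were called, both lower, beside 0.371% of all genes, 0.197% lower. In HL, 3 were called, all lower, beside 2.41% of all genes, 2.06% lower. The median log2 change was −0.13 in LL and −0.15 in HL, against −0.031 and −0.083 over all tested genes. GSTU26 was lower in both lights, GSTU13 in LL, and GSTF6 and GSTU28 in HL.

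GSTU26 (AT1G17190, chromosome 1, 5875295 to 5876620, plus strand), a herbicide-responsive member, was highest in Col-0 LL. The Col-0 libraries held 7.35, 8.03, 11.4 and 8.95 FPKM in LL and 4.91, 3.85, 3.80 and 3.41 in HL. In BBX32-10 they held 3.48, 3.84, 4.42 and 2.82 FPKM in LL and 3.62, 2.05, 3.68 and 2.35 in HL. In hy5-2 they held 2.05, 3.33, 3.72 and 2.82 FPKM in LL and 2.38, 1.31, 1.44 and 0.630 in HL. Every hy5-2 library was below every Col-0 library of the same light. GSTU26 was 3.00 times lower in hy5-2 in LL (log2 change −1.32 with SE 0.19, adjusted limma p 0.00206) and 2.78 times in HL (log2 change −1.07 with SE 0.19, adjusted limma p 0.00208). BBX32-10 LL was also lower than Col-0 LL (log2 change −1.09 with SE 0.19, adjusted limma p 0.000102), and in HL the log2 change was −0.36 (adjusted p 0.181).

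GSTU28 (AT1G53680, chromosome 1, 20038320 to 20039164, plus strand) was at 1.45, 1.30, 1.38 and 1.12 FPKM in LL and 2.86, 2.10, 1.39 and 2.45 in HL in Col-0. It was at 4.33, 3.77, 3.26 and 1.59 FPKM in LL and 2.61, 2.42, 2.69 and 1.40 in HL in BBX32-10. It was at 1.92, 1.15, 1.33 and 0.885 FPKM in LL and 0.480, 0.775, 0.247 and 0.849 in HL in hy5-2. All hy5-2 HL libraries were below 1 FPKM and below all other libraries of the study. In HL it was 3.74 times lower than in Col-0 (log2 change −1.01 with SE 0.20, adjusted limma p 0.00598). In BBX32-10 LL it was higher than in Col-0 LL (log2 change 0.82 with SE 0.20, adjusted limma p 0.00234).

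GSTF6 in HL was 4.20 times lower in hy5-2 than in Col-0, with no overlap (log2 change −2.08 with SE 0.38, adjusted limma p 0.00212). In LL the log2 change was −0.54 (adjusted p 0.515). GSTU13 in LL was 36.9 to 39.7 FPKM in hy5-2 and 50.2 to 58.3 in Col-0 (log2 change −0.50 with SE 0.10, adjusted limma p 0.0189). GSTU17 was higher in all hy5-2 LL libraries than in Col-0 LL but was not called (log2 change 0.49, adjusted p 0.102). GSTU13 was not called without replicates 1, 3 or 4 of Col-0 LL or replicates 3 or 4 of hy5-2 LL, where its log2 change ranged from −0.50 to −0.46. The 3 HL calls and the LL call of GSTU26 held whichever library was left out.

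**Figure D4:**
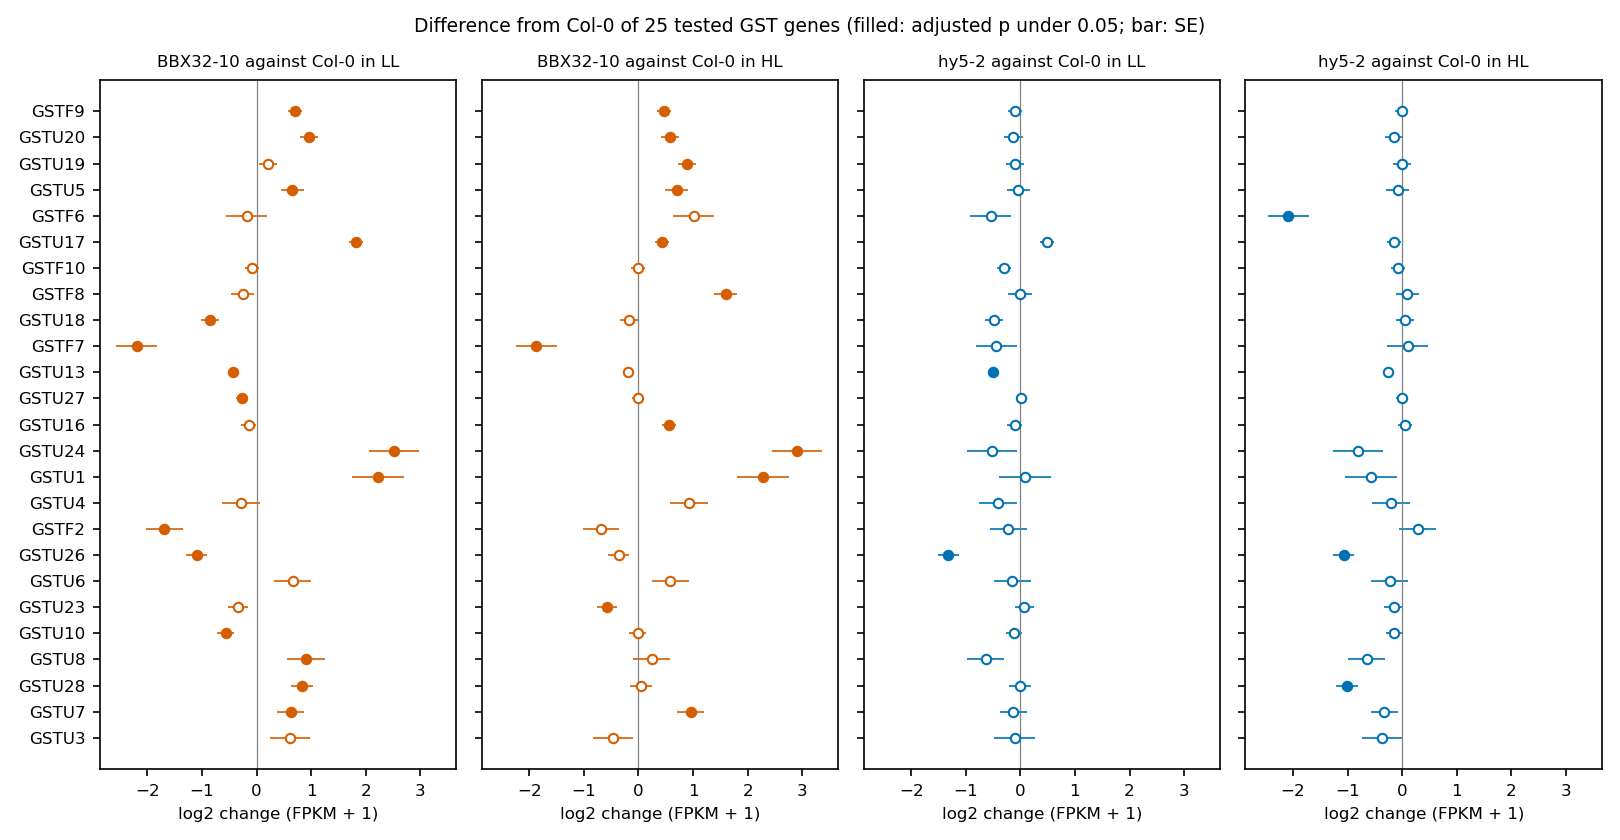
Difference from Col-0 on the log2(FPKM + 1) scale (horizontal axis) for the 25 tested members, for BBX32-10 and hy5-2 in LL and HL; points are limma estimates, bars SE, filled where the adjusted p was under 0.05. GSTU24 and GSTU1 lie above 2 in both BBX32-10 panels, and the hy5-2 panels have 2 and 3 filled points, all below 0.

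The genotype-by-light interaction tested whether a line changed the HL response. For BBX32-10, 5 of 25 members were called, 4 with a higher response than in Col-0 and 1 with a lower one, beside 19.8% of all genes, 6.95% higher and 12.9% lower. GSTF8 fell in Col-0 and rose in BBX32-10, an interaction of 1.85 (SE 0.30, limma adjusted p 0.000241). GSTU17 rose in Col-0 and fell in BBX32-10, where its LL level already exceeded the Col-0 HL level (−1.39, SE 0.18, adjusted p 2.48e-05). The others were GSTU16 (0.70, adjusted p 0.0102), GSTU18 (0.68, adjusted p 0.0386) and GSTU19 (0.67, adjusted p 0.0471). GSTU19 was not called without replicates 1, 2, 3 or 4 of Col-0 LL, replicates 2, 3 or 4 of Col-0 HL, replicates 1, 2, 3 or 4 of BBX32-10 LL or replicates 2 or 4 of BBX32-10 HL, where its log2 change ranged from 0.44 to 0.72. GSTU18 was not called without replicate 4 of Col-0 LL, replicates 1 or 2 of Col-0 HL, replicates 1, 2 or 3 of BBX32-10 LL or replicates 2 or 4 of BBX32-10 HL, where its log2 change ranged from 0.58 to 0.70. The calls of GSTF8, GSTU17 and GSTU16 held whichever library was left out. With replicates 2 and 4 of BBX32-10 HL both left out, 3 members were called, beside 12% of all genes, namely GSTF8 (1.37), GSTU17 (−1.36) and GSTU26 (1.00).

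For hy5-2, limma called 0 of 25 interactions, beside 0.652% of all genes. At an unadjusted p under 0.05 there were 4, 1 higher and 3 lower, and the share of all genes at that threshold was not counted. Voom on recovered fragments also called 0, and a fit of only the libraries compared called 2, GSTU17 at −0.63 and GSTU28 at −0.99. The GSTF6 interaction was −1.54 (adjusted p 0.21).

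The other GST genes were described from a list of 15, namely the phi genes GSTF4, GSTF5 and GSTF12, and the zeta, theta, lambda, dehydroascorbate reductase (DHAR) and TCHQD genes, of which 14 could be tested. In HL, 8 were called in Col-0 (beside 51.6% of all genes) and 4 in BBX32-10 (19.6%), all higher, and 6 rose and 1 fell in hy5-2 (43.5%). GSTF5 rose by 1.36 in Col-0 on the log2 scale, GSTF12, which carries anthocyanins, by 1.31, and the ascorbate-recycling enzymes DHAR1 and DHAR2 by 1.21 and 0.93 (limma adjusted p 0.00023, 0.00712, 0.0257 and 6.66e-05). In BBX32-10 against Col-0, 5 were higher and 1 lower in LL and 3 higher and 1 lower in HL, beside 42.5% and 23.6% of all genes. With replicates 2 and 4 of BBX32-10 HL left out, 0 were called in HL, beside 8.17% of all genes. GSTF12 was higher in LL (1.85, adjusted p 0.000595) and GSTF5 in both lights (0.93 and 1.14). In hy5-2 against Col-0, limma called 0 in LL (2 at an unadjusted p under 0.05, 0 with voom), beside 0.371% of all genes called. GSTF12 and GSTF5 were lower in HL, beside 2.41% of all genes (−2.43 and −1.03).

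Genes known to be switched on with tau GSTs by xenobiotics were followed as a list of 19, of which 15 could be tested. In BBX32-10 against Col-0, 9 were called in LL and 10 in HL, all of them higher, beside 25.8% and 10.9% of all genes called higher. In HL, 4 were called, all higher, when replicates 2 and 4 of BBX32-10 were left out, beside 8.17% of all genes called. The reductases ChlADR2 and AKR4C9, the cytochrome P450 CYP81D11 and the glucosyltransferase UGT74E2 had the largest log2 changes in HL, at 3.02, 2.68, 2.87 and 2.63 (limma adjusted p 2.58e-05, 0.000325, 0.00325 and 0.000975). CYP81D11 was at 4.53, 31.5, 3.85 and 3.28 FPKM in LL and 13.5, 27.1, 8.54 and 139.9 in HL in BBX32-10, with replicate 2 in LL and replicates 2 and 4 in HL highest, as for GSTU24 and GSTU1. Without replicates 2 and 4 of that group, the HL changes of ChlADR2 and AKR4C9 were 1.86 and 1.94 (adjusted p 0.000312 and 0.0257), and CYP81D11 (1.66) and UGT74E2 (1.70) were not called (adjusted p 0.122 and 0.0634). In hy5-2 against Col-0, limma called 0 of the 15 in either light, beside 0.371% of all genes in LL and 2.41% in HL. At an unadjusted p under 0.05 there were 0 in LL and 2 in HL, and voom called 0 in both. The median log2 change of the list was 0.95 in LL and 1.19 in HL in BBX32-10, and −0.18 and −0.32 in hy5-2, against 0.098, 0.021, −0.031 and −0.083 over all tested genes. Without replicates 2 and 4 of BBX32-10 HL the HL median of the list in BBX32-10 was 0.62, against 0.015 over all tested genes. The list was chosen with earlier results of these data known.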

How the data were processed

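RNA-seq libraries of fully expanded leaves from 24 plants formed 6 groups of 4 by genotype and light, as the labels give them. Messenger RNA was enriched on oligo-dT magnetic beads and primed with random hexamers, per the labels' protocols. The submitters' processing notes name CASAVA, HISAT2 2.0.5, HTSeq 0.6.1, DESeq2 1.20.0, DESeq and the build TAIR10, without roles. The deposited table gave FPKM made by the authors for 34218 genes. Strand use and the handling of shared reads were not given in the sources used here.

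FPKM was taken as log2(FPKM + 1), and 17788 genes, those at 1 FPKM or more in 4 or more libraries, were fitted together with limma 3.58.1 (intensity trend, 9 contrasts, R 4.3.3). All p-values are two-sided and were adjusted by Benjamini-Hochberg over these genes. Counts at an unadjusted p under 0.05 are given without the share of all genes at that threshold. Whole fragments were recovered from the FPKM steps for 99.35% of 24962 genes (within 0.05 of a whole number) and for all 38 members. A value of 0 was read as at most 3 fragments, counting error only. Over 36 replicate pairs, chi-square per degree of freedom was 13.9 to 233, so each library counted separately. Sequences and motifs came from TAIR10.1, where 99.95% of 32548 matched genes had the coordinates of the table, and similar transcripts were sought among the annotated transcripts with blastn 2.17.0.

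Given with every library were the 5 members with the highest mean FPKM and, for each contrast, up to 6 called members with the largest log2 change among those with libraries that did not overlap (for an interaction, the largest called). Other called members are given by log2 change, and other lists by at most 4 genes. The members and lists were chosen with earlier results of these data known. Other settings tried were no filter, a filter at mean FPKM 5, a pseudocount of 0.1, rescaled libraries (factors 0.869 to 1.14), a fit restricted to the compared libraries, the replicate number as a block, limma voom on recovered fragments, each library left out, and, added after seeing the data, BBX32-10 HL replicates 2 and 4 both left out. The fit was tested on simulated data with known changes.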

Additional observations from a re-analysis of the deposited data

Results flagged for a closer look

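The response to HL differed between BBX32-10 and Col-0 for 5 of 25 members by the interaction test, beside 19.8% of all genes: GSTF8 (1.85), GSTU16 (0.70), GSTU18 (0.68) and GSTU19 (0.67) with a higher response in BBX32-10 and GSTU17 (−1.39) with a lower one, all on the log2 scale. The calls of GSTU18 and GSTU19 were lost in 8 and 13 of the 16 fits that left out a library of these groups, with no filter and under the replicate block, and with replicates 2 and 4 of BBX32-10 HL both left out only GSTF8 and GSTU17 of the 5 were called.

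Single libraries stood apart from the other 3 of their group for 12 of 150 combinations of member and group, where chance gives about 1 in 20. In BBX32-10 LL, replicate 2 held 35.0 FPKM of GSTU24, and replicate 4 held 336 of GSTU19, 1606 of GSTF9 and 0.698 of GSTF2. In BBX32-10 HL, replicate 3 held 25.1 FPKM of GSTU27. In Col-0 the values were 68.4 FPKM of GSTU18 in LL replicate 4, 1.00062 of GSTU7 in HL replicate 4 and 2.64 of GSTU8 in HL replicate 3. In hy5-2 they were 1.55 FPKM of GSTU3 in LL replicate 3, 170.1 of GSTF8 in LL replicate 4, and 4.12 and 5.02 of GSTU6 in replicate 1 of LL and of HL. GSTU6 overlaps AT2G29430 on the opposite strand over 398 bases, which was listed at 0 in every library.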

How the results depend on the processing

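No called member changed direction under any alternative run. The number of members called moved by over 1.5 times with a fit of only the libraries compared for the HL response in BBX32-10 (3 in place of 12), BBX32-10 against Col-0 in HL (6 in place of 12) and the hy5-2 interaction (2 in place of 0). Over all genes that fit called 1108 higher and 874 lower, in place of 1912 and 1575, for the HL response in BBX32-10. It called 765 and 1175, in place of 1932 and 2267, for BBX32-10 against Col-0 in HL. For the hy5-2 interaction it called 18 and 274, in place of 5 and 111. With a mean FPKM of at least 5 the number of members called moved for BBX32-10 against Col-0 in LL (10 in place of 16) and for hy5-2 against Col-0 (1 in place of 2 in LL and 1 in place of 3 in HL), since fewer genes were tested. Only 15 members had that mean, and all 49 calls of these members were kept. Over all genes that filter called 3540 higher and 2112 lower of 11928 for BBX32-10 against Col-0 in LL. With no filter the number moved for the BBX32-10 interaction (3 in place of 5). With replicates 2 and 4 of BBX32-10 HL both left out, an alternative chosen after seeing the data, the counts were 5 in place of 12 (HL in BBX32-10), 4 in place of 12 (BBX32-10 against Col-0 in HL) and 3 in place of 5 (BBX32-10 interaction), and 19 of 29 calls were lost. Of the 67 calls, 18 were lost with only the libraries compared, 7 with no filter, 3 with a pseudocount of 0.1, 3 with rescaled libraries and 2 with voom. With no filter, some members without a test in the main fit were called. GSTU9 was lower in HL in Col-0 (−0.76, limma adjusted p 0.00146) and in BBX32-10 LL against Col-0 LL (−0.48, adjusted p 0.0424). GSTU22 was higher in BBX32-10 LL than in Col-0 LL (0.25), and GSTF14 fell in HL in hy5-2 (−0.092). With each library left out, the counts ranged from 8 to 10 (HL in Col-0), 6 to 11 (HL in BBX32-10), 6 to 8 (HL in hy5-2), 13 to 16 and 8 to 13 (BBX32-10 against Col-0 in LL and HL), 1 to 2 and 3 to 3 (hy5-2 against Col-0), 3 to 7 (BBX32-10 interaction) and 0 to 0 (hy5-2 interaction). The all-gene calls also moved in these fits, as given above for BBX32-10 against Col-0 in HL. In 0 of 15 pairs of groups was every correlation between same-numbered replicates over 0.1. Single correlations ranged from −0.53 to 0.47. A single discordant library defeats this rule, so it cannot decide whether the numbers pair some of the plants. The replicate block changed no count; in the BBX32-10 interaction (5 calls) it lost GSTU18 and GSTU19 and gained GSTU26 and GSTU28. The cause of the other moves was not tested. Members under 1 FPKM rest on few fragments.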

Other observations

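Genes of glutathione synthesis, recycling and peroxidases were followed as a list of 18, of which 16 could be tested. In HL, 3 rose and 4 fell in Col-0, 2 rose and 6 fell in hy5-2, and 1 rose and 2 fell in BBX32-10, beside 51.6%, 43.5% and 19.6% of all genes called. GPX7, a plastid peroxidase of the glutathione peroxidase family, was at 10.1, 8.85, 11.0 and 9.80 FPKM in LL and 38.2, 41.0, 48.8 and 45.6 in HL in Col-0. In BBX32-10 it was at 27.6, 24.2, 24.8 and 23.7 FPKM in LL and 48.2, 20.6, 25.9 and 21.2 in HL. In hy5-2 it was at 9.62, 8.91, 9.43 and 9.65 FPKM in LL and 13.3, 13.6, 8.93 and 11.0 in HL. Its HL response was 2.02 on the log2 scale in Col-0 (limma adjusted p 6.07e-09), and the interaction was −1.90 for BBX32-10 (adjusted p 2.66e-05) and −1.75 for hy5-2 (adjusted p 0.000891). In BBX32-10 HL replicate 1 was the high library, at 48.2 FPKM against 20.6 to 25.9. GGT1, which begins the breakdown of extracellular glutathione, fell in HL in Col-0 (−1.47), BBX32-10 (−0.88) and hy5-2 (−1.34). The cytosolic glutathione-degrading enzyme GGCT2;1 rose in Col-0 (0.74) and hy5-2 (1.36) and was lower in BBX32-10 than in Col-0 in both lights (−0.69 and −0.83). In BBX32-10 against Col-0, 3 were higher and 6 lower in LL, and 2 higher and 3 lower in HL, beside 42.5% and 23.6% of all genes. With replicates 2 and 4 of BBX32-10 HL left out, 1 was called in HL, lower, beside 8.17% of all genes. In hy5-2 against Col-0, limma called 0 in LL (2 at an unadjusted p under 0.05, 0 with voom), beside 0.371% of all genes called. In HL it called 3, all lower, beside 2.41% of all genes.

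Among 9 transcription factors tied to detoxification genes, all tested, HY5 and the NAC factors NAC032 and ATAF1 were higher in BBX32-10 than in Col-0 in both lights, with log2 changes of 2.17, 1.38 and 0.91 in LL and 0.77, 1.12 and 0.89 in HL. In LL, 3 were higher and 1 lower (ATAF2, −0.47), and in HL 3 were higher, beside 42.5% and 23.6% of all genes. With replicates 2 and 4 of BBX32-10 HL left out, ATAF1 was not called in HL (adjusted p 0.0925). The TGA factors TGA2, TGA5 and TGA6 and their partner SCL14 were not called in that comparison in either light. In HL, 3 rose in Col-0, 3 in hy5-2 and 2 in BBX32-10, beside 51.6%, 43.5% and 19.6% of all genes called (30%, 23.1% and 10.7% higher). NAC032 rose in all 3 genotypes (1.21, 0.94 and 1.01).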
